A study of Rattus norvegicus with 20 samples.

Results

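SHP2, M-Ras and the RAS-MAPK kinases form a signalling chain, and 7 of its genes were followed in rat mammary cancers and normal mammary tissue: Ptpn11, Mras, Hras, Nras, Braf, Map2k1 and Mapk3. Probes were assigned to them through the RefSeq accession that the array design gives each probe. Of these 7 genes, 5 had a probe (6 probes in all, 2 of them for Ptpn11), out of 8963 genes with a symbol on the array. Hras and Braf matched no probe and were not analysed here. The 7 genes were chosen from measured values of these arrays, chiefly the difference between cancers of obesity-prone rats and the other cancers, so that difference is given below as a description with no test. All 6 probes were well above background on all 20 arrays.

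SHP2, encoded by Ptpn11, is a tyrosine phosphatase that docks on activated receptor tyrosine kinases and their adaptors and is needed for full activation of RAS. RAS proteins are GTPases that switch on RAF kinases, which phosphorylate MEK (Map2k1), which in turn phosphorylates ERK (Mapk3). M-Ras, encoded by Mras, is a RAS relative that recruits SHOC2 and the phosphatase PP1 into a complex that removes an inhibitory phosphate from RAF, and SHP2 is known to act on this step as well. In the mammary gland the chain carries signals of the EGF receptor family that drive ductal growth, and it is often active in mammary carcinoma.

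The study asked how obesity bears on mammary cancer after radiation. Every animal was a female Sprague-Dawley rat (Jcl:SD) that received 4 Gy of Cs-137 gamma rays to the whole body at 7 weeks of age, at 0.5 Gy/min, and was then watched for palpable cancer over 30 weeks, so no group was free of irradiation. Obesity-prone (OP) and obesity-resistant (OR) rats ate the same high-fat diet (45 kcal% fat) and were told apart by body weight at 7 weeks, whereas lean controls (LC) ate a standard diet (10 kcal% fat). There were 20 arrays, of 12 adenocarcinomas (OP 6, OR 3, LC 3) and 8 samples of normal mammary tissue (OP 3, OR 2, LC 3). The adenocarcinomas had been picked for even histology, without necrosis or heavy infiltration, and the labels describe the normal tissue as age-matched. The labels do not say that each tissue came from a separate animal, so a p-value here speaks only for the spread among these samples, which may in part be technical. Levels are log2 of the background-corrected, quantile-normalized brightness of a probe, 1 unit is a doubling, and a level of 1 probe is not set against that of another.

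The arrays lay on 5 slides read on 2 scan days, as the file headers give them. On scan day 1, slide 4 carried 4 cancers, all OP, and slide 5 carried 2 cancers each of OR and LC. The remaining 4 cancers and all 8 normal tissues were on slides 1 to 3, on scan day 2. Between 61.3% and 79.3% of probes were well above background on cancer arrays and between 87.7% and 97.7% on normal arrays. Adipocyte markers fell in cancers (9 of 9 tested, mean level of the list 7.00 to 7.46 against 11.54 to 12.35 in normal tissue), as did 5 of 6 fibroblast and 3 of 3 endothelial markers, while 12 of 12 luminal epithelial and 8 of 8 proliferation markers rose. These arrays measure RNA of whole tissue, so fewer cells of a type and less RNA per cell cannot be told apart. Replicates 2 and 3 of LC normal tissue stood apart from the other 6 normal tissues for Ptpn11 and Mras. In LC normal tissue 3 the T and NK cell markers had a mean level of 11.26, against 7.84 to 8.33 in those 6, and in LC normal tissue 2 the proliferation markers had a mean level of 9.64, against 7.58 to 8.55. Cancer against normal tissue is therefore also given without these 2 samples for Ptpn11, Mras, Nras, Map2k1 and Shoc2. LC normal tissue 1, the only one of its group then left, was itself at the edge of the normal tissues. Its luminal epithelial mean was the lowest (9.38, range 9.38 to 11.38). Its adipocyte (12.35) and fibroblast (15.63) means were the highest.

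The promoters of the members that carried the differences are shown because Ptpn11 and Mras were high together in OP cancers, and Nras and Map2k1 rose together in cancer. Each sequence is the 250 bases before the start of transcription, 5′ to 3′ on the gene's strand, from RefSeq (build GRCr8, whereas the array design names rn4). The table held 6 of the 7 genes, Mapk3 being the other one. Capitals mark the GC box GGGCGG, a site of Sp1-family zinc finger factors, and CCGGAAG, a core bound by ETS factors, many of which are phosphorylated by ERK. Both were searched on both strands, so that CCGCCC is the GC box read from the opposite strand, and no 2 matches overlapped. Of the 33469 promoter windows of the same length in the table, 30.5% held a GC box and 7.3% the ETS core. Mras has 2 entries with different starts.
Ptpn11, chr12:41025829-41026078, plus strand: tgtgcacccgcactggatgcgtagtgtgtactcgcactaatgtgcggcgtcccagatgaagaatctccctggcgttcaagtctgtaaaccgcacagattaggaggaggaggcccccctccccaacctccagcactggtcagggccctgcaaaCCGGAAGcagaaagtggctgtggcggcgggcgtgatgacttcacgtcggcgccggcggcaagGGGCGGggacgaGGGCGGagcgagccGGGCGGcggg
Mras, first entry, chr8:108876148-108876397, minus strand: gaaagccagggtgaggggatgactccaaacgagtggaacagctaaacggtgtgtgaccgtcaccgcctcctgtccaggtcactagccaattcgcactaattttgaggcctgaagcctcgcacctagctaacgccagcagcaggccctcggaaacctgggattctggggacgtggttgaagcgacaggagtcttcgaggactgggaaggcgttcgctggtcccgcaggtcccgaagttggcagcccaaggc
Mras, second entry, chr8:108875912-108876161, minus strand: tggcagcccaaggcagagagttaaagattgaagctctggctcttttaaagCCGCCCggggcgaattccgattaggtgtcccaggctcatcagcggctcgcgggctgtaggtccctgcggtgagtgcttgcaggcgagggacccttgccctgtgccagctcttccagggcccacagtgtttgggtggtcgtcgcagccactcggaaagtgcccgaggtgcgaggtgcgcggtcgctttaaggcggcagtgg
Nras, chr2:193271220-193271469, plus strand: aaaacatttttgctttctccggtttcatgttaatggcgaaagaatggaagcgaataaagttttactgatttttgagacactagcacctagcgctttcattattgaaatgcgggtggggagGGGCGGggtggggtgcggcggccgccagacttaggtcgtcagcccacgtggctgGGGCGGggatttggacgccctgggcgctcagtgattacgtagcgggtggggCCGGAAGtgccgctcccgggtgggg
Map2k1, chr8:73650185-73650434, minus strand: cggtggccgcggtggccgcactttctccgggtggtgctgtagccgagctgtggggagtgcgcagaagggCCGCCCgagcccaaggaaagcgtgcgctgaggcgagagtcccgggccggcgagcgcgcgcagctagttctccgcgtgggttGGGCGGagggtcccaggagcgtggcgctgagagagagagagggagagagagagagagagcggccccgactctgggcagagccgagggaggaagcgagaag

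The Ptpn11 window held 3 GC boxes, the nearest starting 10 bases before the transcription start, and 1 ETS core, 98 bases before it. Of the Mras entries, the first held neither motif and the second held 1 GC box, so Ptpn11 and Mras had no ETS core in common in these windows. Nras held 2 GC boxes and 1 ETS core, 25 bases before its start, and Map2k1 held 2 GC boxes and no ETS core. The printed windows were 57.2% to 70.4% G and C, against a median of 51.2% over all windows, and a GC box is a GC-rich word. A match is a description of the letters and shows no binding.

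Mras was highest in normal tissue, intermediate in OP cancers and lowest in the other cancers. Its level was 11.68, 11.91 and 11.27 in OP normal tissue, 11.66 and 11.74 in OR normal tissue, and 12.30, 10.70 and 10.04 in LC normal tissue. In OP cancers it ran from 10.14 over a median of 10.59 to 10.81, in OR cancers it was 9.92, 9.29 and 9.60, and in LC cancers 9.57, 9.70 and 9.96. All 6 OP cancers lay above all 6 other cancers. Every cancer lay below 6 of the 8 normal tissues, while LC normal tissue 2 fell among the OP cancers and LC normal tissue 3 between them and the other cancers. In order of group means, OR (9.60 ± 0.32, SD, n = 3) and LC cancers (9.74 ± 0.20, n = 3) overlapped each other, and OP cancers (10.53 ± 0.25, n = 6) stood above them. LC normal tissue (11.01 ± 1.2, n = 3) overlapped both the OP cancers and the other normal groups, OP (11.62 ± 0.33, n = 3) and OR (11.70 ± 0.051, n = 2).

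Ptpn11 was measured by a brighter probe (A_44_P999869) and a dimmer one (A_44_P317773), which moved together across samples but not between tissues. On the brighter probe OP cancers ran from 12.98 over a median of 13.26 to 13.49, OR cancers were at 12.71, 12.93 and 12.92, and LC cancers at 12.40, 12.71 and 12.62. Normal tissue was at 13.62, 13.92 and 13.62 in OP, at 13.58 and 13.60 in OR, and at 13.85, 11.77 and 11.84 in LC. OP cancers therefore lay above every other cancer and below the 6 higher normal tissues, and replicates 2 and 3 of LC normal tissue were the lowest of all 20 samples. On the dimmer probe OP cancers ran from 10.32 over a median of 10.46 to 10.58, OR cancers were at 10.00, 10.33 and 10.26, and LC cancers at 9.63, 10.15 and 10.16. Normal tissue was at 10.16, 10.27 and 10.04 in OP, 9.99 and 10.03 in OR, and 10.27, 9.0 and 9.09 in LC. Here the highest OR cancer reached into the range of the OP cancers, and OP cancers lay above all normal tissues, the reverse of the brighter probe. The array files do not say which part of the transcript each probe reads.

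Nras, a classical RAS protein, was higher in every cancer than in every normal tissue. It ran from 8.16 over a median of 8.56 to 8.67 in OP cancers, was 8.65, 8.68 and 8.64 in OR cancers, and 8.82, 8.72 and 8.55 in LC cancers. In normal tissue it was 7.40, 6.84 and 7.72 in OP, 7.27 and 6.99 in OR, and 6.45, 7.20 and 7.94 in LC. The 3 cancer groups overlapped one another, as did the 3 normal groups.

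Map2k1, which encodes MEK1, was also higher in cancer, with overlap through 1 normal tissue. It ran from 10.18 over a median of 10.36 to 10.86 in OP cancers, was 10.64, 10.89 and 10.89 in OR cancers, and 10.83, 10.67 and 10.82 in LC cancers. Normal levels were 9.80, 9.76 and 9.60 in OP, 9.59 and 9.46 in OR, and 9.63, 9.77 and 10.38 in LC, where replicate 3 exceeded 3 of the OP cancers. Mapk3, which encodes ERK1, showed no such separation. It ran from 7.62 over a median of 8.30 to 8.69 in OP cancers, was 8.54, 8.30 and 8.32 in OR cancers, and 8.57, 8.69 and 8.39 in LC cancers. In normal tissue it was 8.26, 8.28 and 8.50 in OP, 8.14 and 8.10 in OR, and 7.97, 8.36 and 7.75 in LC, inside the range of the cancers.

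**Figure D1:**
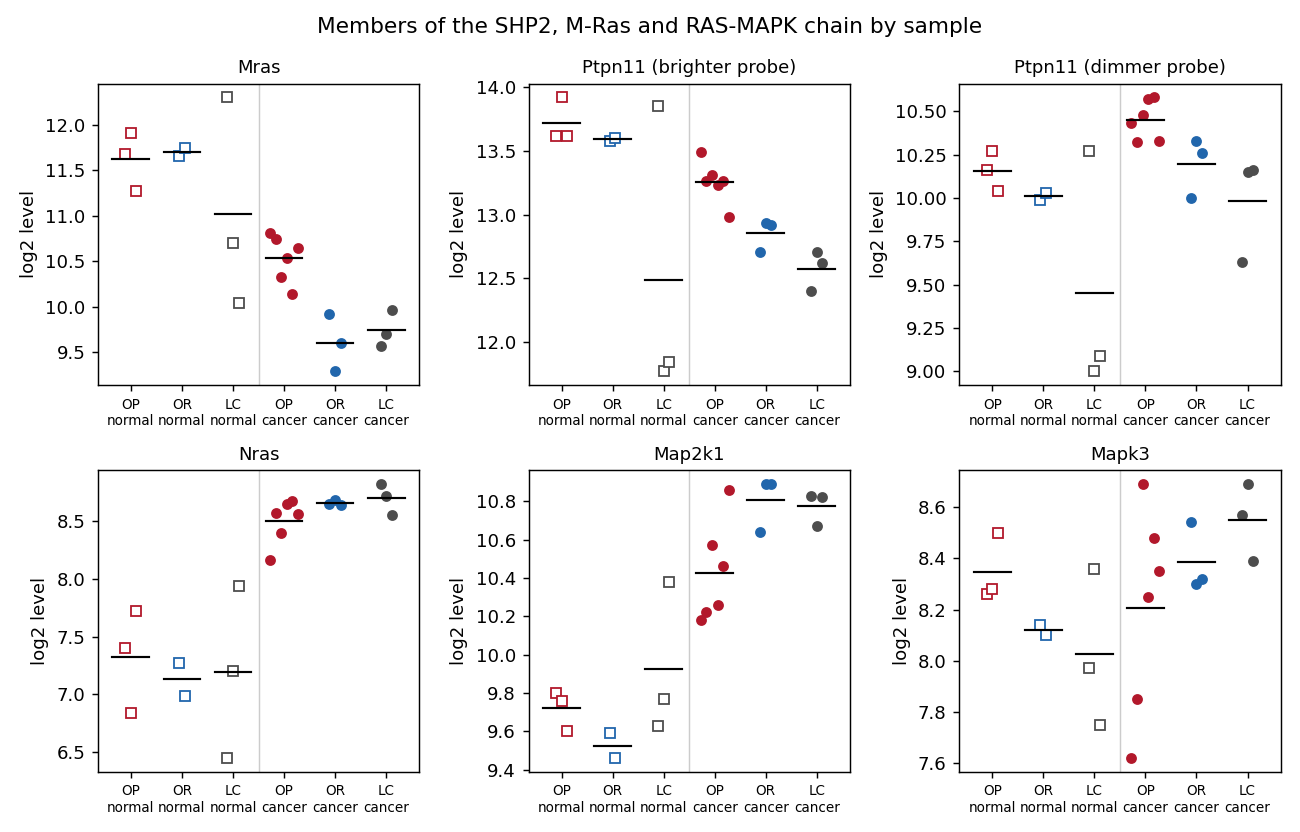
Log2 level of the 6 probes of the 5 measured genes by group (x axis, normal tissue on the left as open squares, cancers on the right as filled circles), with 1 point per sample and a line at the group mean; each panel has its own y axis. OP cancers sit above the other cancers for Mras and the brighter Ptpn11 probe, every cancer sits above every normal tissue for Nras, and replicates 2 and 3 of LC normal tissue are low for Mras and Ptpn11.

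Cancers were compared with normal tissue by giving OP, OR and LC equal weight in each tissue, in a model over all 40072 tested probes. Mras fell by 1.48 on the log2 scale (SE 0.221, 2.80-fold lower), while Nras rose by 1.40 (SE 0.158, 2.64-fold) and Map2k1 by 0.94 (SE 0.105, 1.92-fold). Limma's adjusted p-values were 2.56e-05, 1.65e-06 and 1.46e-06. In all, 4 of the 6 probes passed the threshold of an adjusted p under 0.05, 3 higher and 1 lower, but 62.8% of all probes passed it (30.2% higher and 32.6% lower), so a passing member is no rarity in this comparison. Of all calls 48.1% were higher in cancer in the main setting, against 18.3% and 17.8% under the 75th-percentile scalings without and with normexp correction and 39.6% in the authors' deposited table. Without LC normal tissues 2 and 3, Mras was at -1.91, Nras at 1.65 and Map2k1 at 1.04. These 2 tissues were singled out after the data were seen, for their Ptpn11 and Mras levels. Leaving out the normal tissues lowest in Mras makes its fall larger by construction, so no test is read from this setting. Of the members only Nras had cancers and normal tissues that did not overlap, which held for 20.3% of all probes.

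The direction of each of these 3 genes was the same in each obesity group. For Mras, cancer minus normal was -1.09 in OP (limma adjusted p = 0.0141), -2.1 in OR (0.00208) and -1.27 in LC (0.0138). Nras rose by 1.18 (0.000992), 1.53 (0.00186) and 1.5 (0.00053), and Map2k1 by 0.71 (0.00205), 1.28 (0.000355) and 0.84 (0.00178). These were the 3 of 6 probes that passed in OP (background 44.8%), in OR (29.4%) and in LC (43.9%), and whether the groups differ from one another was not tested. In OP the count became 5 of 6, both Ptpn11 probes joining, without LC normal tissue 1 (48.6% of all probes called) or without LC normal tissues 2 and 3 (49.6%), which leave the OP samples as they are and narrow the shared estimate of spread. Without LC normal tissues 2 and 3, when LC normal tissue 1 stands alone, the LC differences were -2.55 for Mras, 2.24 for Nras and 1.14 for Map2k1. These rest on 1 normal tissue low in luminal epithelial and high in adipocyte markers, as given above. In scan day 2 alone (4 cancers, 8 normal tissues) 0 member probes passed in each group, while 16.7% of all probes were called in OP, 6.92% in OR and 14.5% in LC. Member differences there were -0.85, -1.78 and -1.44 for Mras, 1.05, 1.52 and 1.62 for Nras, and 0.49, 1.11 and 0.9 for Map2k1, in that order of groups. The Mras call ended in LC without LC normal tissue 1 (-0.63, adjusted p = 0.0566) and in OP without OP normal tissue 2 (-0.94, adjusted p = 0.0778). It also ended in OP when slide (-1.01, adjusted p = 0.0902) or scan day (-0.93, 0.0673) was a block, and in LC when scan day was (-1.11, 0.0521). The slide block also ended the Map2k1 call in OP (0.51, adjusted p = 0.0826). Within slides 1, 2 and 3, cancer minus normal was -1.8, -0.69 and -1.09 for Mras, 1.56, 1.47 and 1.1 for Nras, and 0.79, 0.52 and 0.83 for Map2k1. The tissues that differed in Mras also differed in their adipocyte, fibroblast and endothelial markers, as given above, and the part of these cells in the result was not tested.

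The Ptpn11 probes went opposite ways between tissues. The dimmer probe was 0.34 higher in cancer (SE 0.139, limma adjusted p = 0.0433) and the brighter probe 0.37 lower (log2 difference -0.37, SE 0.207, adjusted p = 0.13), so the gene has no single direction here. The call on the dimmer probe was not lost under the other 3 scalings named above, at 0.57, 0.57 and 0.58 (adjusted p = 0.00174, 0.000647 and 0.000852), under which this probe also passed in OP (0.52, 0.57 and 0.52, adjusted p = 0.046, 0.0177 and 0.0407) and in LC (0.81, 0.72 and 0.83, adjusted p = 0.00875, 0.0175 and 0.00655). The brighter probe was then at -0.18, -0.13 and -0.16 and did not pass. In the main scaling the dimmer probe's call ended on leaving out any 1 of 14 of the 20 arrays (OP cancers 1, 3, 4 and 5, OR cancers 2 and 3, LC cancers 2 and 3, OP normal tissues 1 and 3, OR normal tissues 1 and 2, LC normal tissues 2 and 3), with differences from 0.26 to 0.47 and adjusted p-values from 9.28e-05 to 0.0947 over the 20 such fits. It also ended with slide (0.027, adjusted p = 0.909) or scan day (0.16, 0.454) as a block. Without LC normal tissues 2 and 3 together, a setting added after the data were seen, the dimmer probe differed by 0.065 and the brighter probe fell by 0.82. These 2 tissues were singled out for their low Ptpn11 and Mras levels, so no test is read from these values. Without LC normal tissue 2 alone the brighter probe fell by 0.49 (adjusted p = 0.0368), and without LC normal tissue 3 alone by 0.48 (0.0458). Within slides 1, 2 and 3 the brighter probe differed by -0.79, 0.17 and -0.31 and the dimmer by -0.19, 0.57 and 0.28.

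Mapk3 was 0.22 higher in cancer (SE 0.127, limma adjusted p = 0.151). Its sign turned to -0.10 and -0.11 when arrays were scaled to their 75th percentile, before and after normexp correction, and to -0.086 in the authors' deposited table. It passed the threshold without OP cancer 1 (0.25, adjusted p = 0.0481). Within groups Mapk3 did not pass, at -0.14 in OP, 0.26 in OR and 0.52 in LC (adjusted p = 0.58, 0.451 and 0.0651). With slide as a block it passed as lower in OP (-0.62, adjusted p = 0.0157) and as higher in LC (0.68, 0.0141). In LC it also passed without OP cancer 1 (0.52, adjusted p = 0.0306), without OP cancer 3 (0.52, 0.0446) and without LC normal tissue 2 (0.69, 0.0286). Under these 3 scalings Mras was at -1.39, -1.21 and -1.37, Nras at 1.05, 0.81 and 1.06, and Map2k1 at 1.2, 1.15 and 1.22. The median of all probes was then -1.42, -0.78 and -0.19, against -0.014 in the main setting. Under the first scaling the fall of Mras was thus about that of the median probe, while Nras and Map2k1 lay above the median in each.

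**Figure D2:**
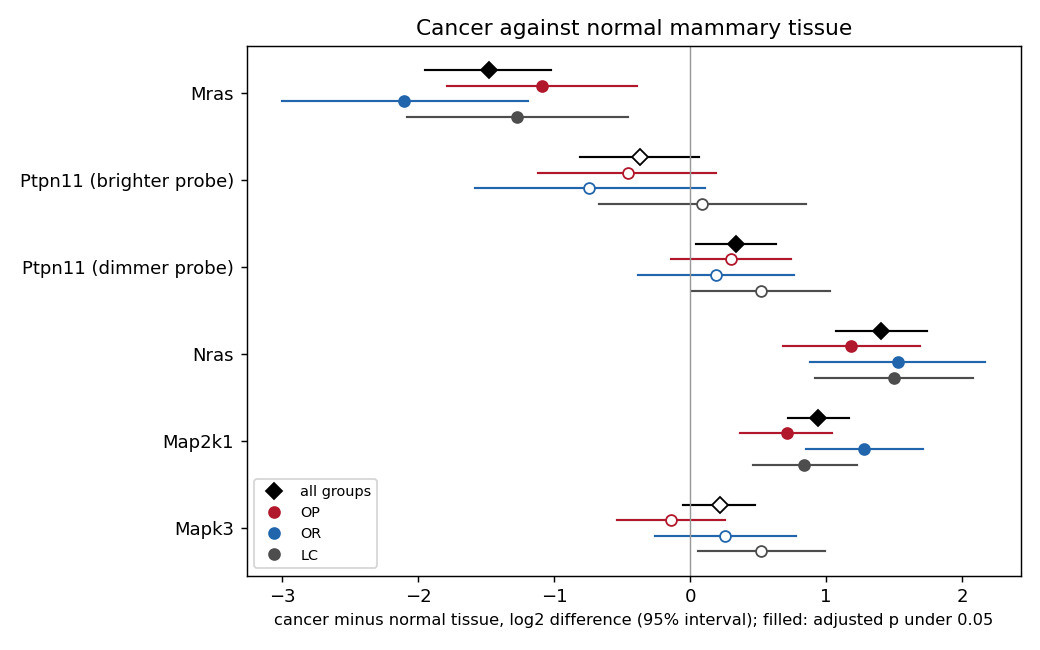
Cancer minus normal tissue (x axis, log2 difference with its 95% interval) for the 6 probes (y axis), over all groups (diamonds) and within OP, OR and LC (circles); filled symbols passed an adjusted p under 0.05. Mras lies at -1.48, Nras at 1.40 and Map2k1 at 0.94 over all groups, and the Ptpn11 probes lie on opposite sides of 0 at -0.37 and 0.34.

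OP cancers were set against the other cancers because the study asked how obesity bears on mammary cancer. The genes were chosen on this difference, so the values carry no test. Mras was 0.86 higher in OP than in OR and LC cancers, averaged with equal weight for both groups (SE 0.139, 1.81-fold), and Ptpn11 0.54 higher on the brighter probe (SE 0.0881, 1.45-fold) and 0.36 on the dimmer (SE 0.103, 1.29-fold). The difference for Mras was 0.93 against OR and 0.79 against LC, and for the brighter Ptpn11 probe 0.40 and 0.68. The other members had negative differences: Map2k1 -0.36 (SE 0.115), Mapk3 -0.26 (SE 0.166) and Nras -0.17 (SE 0.0904). The 95% intervals of Mapk3 (-0.63 to 0.10) and Nras (-0.37 to 0.025) held 0. For 2 of 6 probes, Mras and the brighter Ptpn11 probe, all OP cancers exceeded all others, an arrangement found for 0.424% of all probes, and no member had all OP cancers below the others, which 0.472% of all probes had. Since the members were picked for this contrast, nothing is read from these shares.

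Scan day and slide bear on this contrast, because slide 4 held only OP cancers and slide 5 only OR and LC cancers. Within scan day 1 (4 OP, 2 OR and 2 LC cancers) the difference was 0.77 for Mras and 0.40 and 0.26 for the brighter and dimmer Ptpn11 probes, and within scan day 2 (2 OP, 1 OR and 1 LC) 1.03, 0.82 and 0.57. Nras gave -0.077 and -0.37, Map2k1 -0.28 and -0.53, and Mapk3 0.018 and -0.82, so the Mapk3 difference lay in scan day 2. Slide 1 was the one slide with an OP cancer beside a cancer of another group, and there OP cancer 1 exceeded LC cancer 1 by 1.23 for Mras and by 1.09 and 0.81 for Ptpn11. With slide as a block the differences were 1.43 for Mras, 0.96 and 0.73 for Ptpn11, -0.67 for Nras, -0.72 for Map2k1 and -0.83 for Mapk3. That fit sets OP against the other cancers only through this same pair on slide 1, and OR against LC only through slide 5. It is therefore no second estimate beside the pair, and the other OP cancers do not enter the difference. Leaving out any 1 cancer kept Mras between 0.78 and 0.94 and the Ptpn11 probes between 0.49 and 0.59 and between 0.28 and 0.41. Skeletal muscle markers averaged 9.37 in OP cancer 2 and 10.70 in OP cancer 6, against 7.46 to 7.53 in the other 4 OP cancers and 7.47 to 8.0 in the other groups' cancers. Mras was 10.74 and 10.65 in those 2 tumours, and 10.14 to 10.81 in the other 4, which all exceeded the highest level in an OR or LC cancer (9.96). OP cancer 6 also had the highest fibroblast (15.38), macrophage (13.83) and T and NK cell (9.83) marker means of all cancers.

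**Figure D3:**
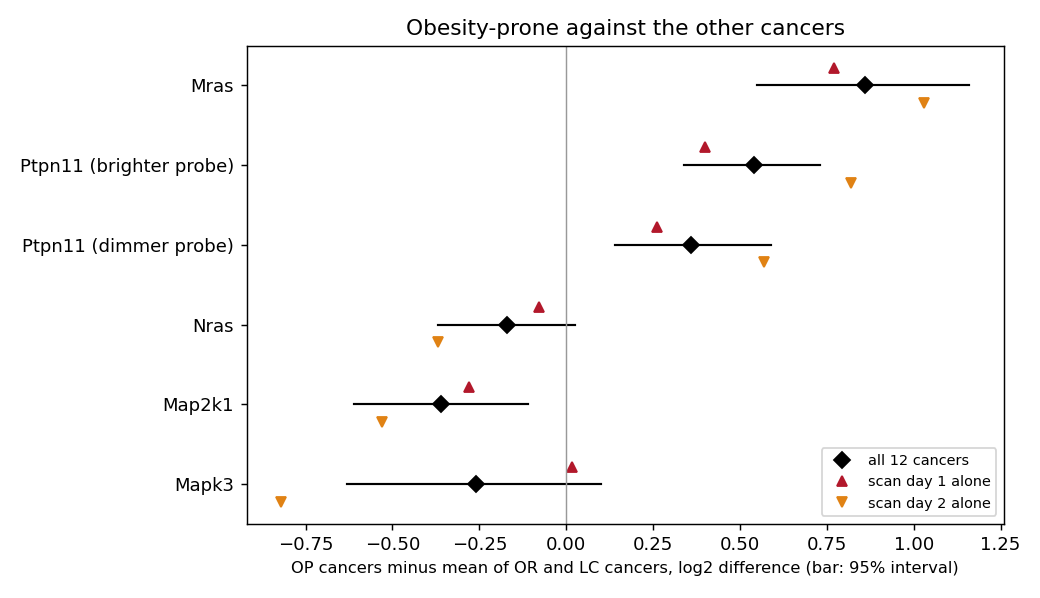
OP cancers minus the average of the other 2 groups (x axis, log2 difference) for the 6 probes (y axis), over all 12 cancers (diamonds, bars are 95% intervals) and within each scan day (triangles). Mras and both Ptpn11 probes lie above 0 on both days, Nras and Map2k1 below it, and Mapk3 moves from 0.018 on scan day 1 to -0.82 on scan day 2.

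Groups without OP cancers were compared to see whether diet or body weight type went with the genes elsewhere. No member passed between OR and LC cancers: Mras differed by -0.14 (95% interval -0.57 to 0.29), Nras by -0.038 (-0.32 to 0.24), Map2k1 by 0.036 (-0.32 to 0.39), Mapk3 by -0.16 (-0.68 to 0.36), and the Ptpn11 probes by 0.28 (0.0036 to 0.55) and 0.22 (-0.10 to 0.54). Limma called 0% of the 40072 probes in this comparison, with 1637 at an unadjusted p under 0.05, among them 1 member probe, the brighter one of Ptpn11. In normal tissue, OP against OR and LC gave 0.26 for Mras (-0.91 to 1.43) and 0.68 and 0.43 for Ptpn11 (-0.48 to 1.84 and -0.28 to 1.13). Limma called 0% there too, with 868 probes and 0 member probes at an unadjusted p under 0.05. The interval for Mras in normal tissue holds the 0.86 seen among cancers, so these 8 samples could not show whether normal tissue of OP rats differs in the same way.

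OR against LC normal tissue gave 0.69 for Mras (-0.76 to 2.14) and 1.11 and 0.55 for Ptpn11 (-0.33 to 2.54 and -0.32 to 1.43), again with 0% of probes called by limma (3594 at an unadjusted p under 0.05, 0 of them members). The width of these intervals comes with the split among the LC normal tissues. Without LC normal tissue 1, 2.21% of all probes were called, and the Ptpn11 probes differed by 1.79 (limma adjusted p = 0.0268) and 0.96 (0.0315), that is, OR normal tissue stood above LC normal tissues 2 and 3.

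Among cancers, the correlations of Ptpn11 with Mras were positive and those with Nras, Map2k1 and Mapk3 negative, and all were weaker for the dimmer Ptpn11 probe. Over the 12 cancers Pearson's r was 0.872 between the Ptpn11 probes. The brighter probe had r = 0.713 with Mras, -0.684 with Nras, -0.737 with Map2k1 and -0.574 with Mapk3, and the dimmer one 0.523, -0.474, -0.508 and -0.322. Between Mras and Map2k1 r was -0.742. Over the 8 normal tissues the Ptpn11 probes had r = 0.995 and the brighter one had r = 0.911 with Mras, where LC normal tissues 2 and 3 are low for both genes. These are descriptions: the cancers share slides and scan days, and the OP group separates from the others on both genes. Of 8661 genes with a symbol, those most like the brighter Ptpn11 probe over the 12 cancers were Cnot4 (r = 0.959), Tmed5 (0.947), Eloa (0.941), Ccdc127 (0.935) and Wasf2 (0.935). Those most like Mras were Rpl14 (0.873), Rps27a (0.868), Grk4 (0.865), Nr2f2 (0.857) and Atp5mc2 (0.852).

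The wider pathway was read from 147 genes listed by role, of which 91 could be tested, each by its brightest probe. In cancer against normal tissue 43 rose, 26 fell and 22 did not pass, so 75.8% of the 91 were called, beside 62.8% of all probes. These are unlike sets, the 91 being the brightest probes of genes with a symbol and most of all probes having none. The part of this choice of probes in the gap between such shares was not tested. Of those called 62.3% were higher, against 49.3% and 50.0% under the 75th-percentile scalings and 57.9% in the authors' deposited table. The main setting had a median difference of 0.28 against -0.014 over all probes. That median became -0.10 and -0.11 under the 75th-percentile scalings, which moved the median of all probes to -1.42 and -0.78, and 0.19 in the authors' deposited table, where it was -0.19. Values for lists and genes below are log2 differences from the main setting, read relative to those shifts, and adjusted p-values are limma's. The members are counted in their lists.

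Upstream, receptor tyrosine kinases split, with 7 of 15 higher and 5 lower. Erbb2, the HER2 receptor of the EGF receptor family, rose by 1.80 (SE 0.145, adjusted p = 5.22e-08), and Erbb3, its dimer partner, by 0.67 (3.13e-06), although Erbb3 turned to -0.21, -0.23 and -0.19 under the other 3 scalings. Kdr, the endothelial VEGF receptor, fell by 1.72 (SE 0.252, 2.12e-05) along with the endothelial markers, of which it is 1. The list's median of 0.30 turned to -0.42, -0.36 and -0.25 under the other scalings. Of the 10 tested adaptors and docking proteins 3 rose and 5 fell, among them Irs1, the insulin receptor's docking protein (-1.42, SE 0.167, 2.64e-06), and Gab2, a scaffold that binds SHP2 (-1.05, SE 0.0918, 1.17e-07). Crk, an SH2 and SH3 adaptor, rose by 0.52 (SE 0.0512, 3.97e-07) but was -0.71 and -0.49 under the 75th-percentile scalings.

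No RAS exchange factor rose and 3 of 4 fell: Rasgrp4 by 0.43 (adjusted p = 0.000661), Rasgrf2 by 0.30 (1.29e-05) and Rasgrp1 by 0.14 (0.0475). Rasgrf2 was well above background in 2 of the 12 cancers and Rasgrp1 in 1, so the size of their fall is not well measured, and under the 75th-percentile scalings it was -3.44 and -1.34 for Rasgrf2 and -3.35 and -1.13 for Rasgrp1. Rasgrp4 was at -1.37, -0.94 and -1.35 under the other 3 scalings. Sos1 and Sos2, the main exchange factors downstream of receptors, were not analysed here. Of the GTPase-activating proteins, which turn RAS off, 3 of 5 rose and 2 fell. Rasa3 fell by 0.70 (0.000813), whereas Nf1, which encodes neurofibromin, rose by 0.31 (0.00192) but was -1.30, -0.72 and -1.29 under the other scalings.

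Among 12 RAS family GTPases 3 rose and 7 fell in the main setting, beside 30.2% of all probes called higher and 32.6% called lower. Under each of the other 3 scalings 4 rose and 4 fell. The rise of Nras was thus not shared by most of its relatives. Rras2, the GTPase TC21, fell by 0.70 (SE 0.104, adjusted p = 2.56e-05) together with Mras. The list's median was -0.32, and -0.21, -0.14 and -0.19 under the other scalings.

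Of 15 RAF kinases and scaffolds 10 rose and 3 fell, with 10 higher under each of the other 3 scalings, beside 30.2% of all probes called higher and 32.6% called lower in the main setting. Pebp1, an inhibitor of RAF signalling, rose by 1.0 (SE 0.0983, adjusted p = 4.05e-07), and Ywhae, a 14-3-3 protein that holds RAF inactive, by 0.94 (7.42e-09). Of the MEK and ERK kinases 5 of 6 rose and none fell. Besides Map2k1, Map2k5, the kinase of ERK5, rose by 0.89 (1.06e-06), which shrank to 0.22, 0.033 and 0.24 under the other scalings. Below ERK, Rps6ka1 (RSK1) rose by 0.95 (0.000284), and Mknk1, well above background in 7 of 12 cancers, fell by 0.31 (0.00121).

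No feedback regulator or transcription target fell in the main setting, whereas 4, 5 and 2 feedback genes and 2, 2 and 1 targets fell under the other 3 scalings. Of 9 feedback genes 5 rose, so fewer than the 62.8% of all probes were called, with 30.2% of all probes called higher. Under each of the other 3 scalings 3 feedback genes rose, of 9, 9 and 7 tested. Dusp5 and Dusp6, phosphatases of ERK, rose by 1.67 (SE 0.159, adjusted p = 2.91e-07) and 1.08 (SE 0.157, 2.06e-05). Dusp4, a nuclear MAPK phosphatase, rose by 0.60 (6.1e-06) but was -0.41, -0.39 and -0.39 under the other scalings. Of 13 target genes 6 rose, so fewer than the 62.8% of all probes were called, among them Egr2 by 1.07 (0.000607), Phlda1 by 0.99 (0.00186) and the AP-1 member Fosl1 by 0.72 (0.000456). Fosl1 turned to -0.32 and -0.29 under the 75th-percentile scalings.

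**Figure D4:**
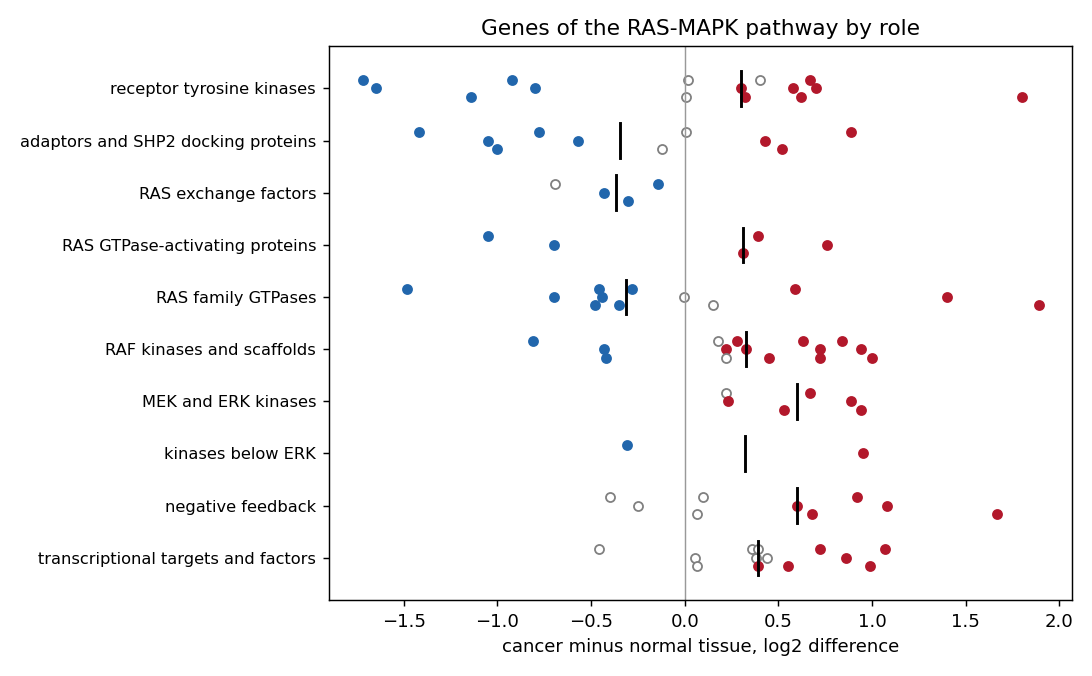
Cancer minus normal tissue (x axis, log2 difference) for the 91 tested pathway genes, 1 point per gene, by role (y axis); red points rose, blue points fell, open grey points did not pass an adjusted p under 0.05, and black bars are list medians. RAF, MEK and ERK, feedback and target lists lie mostly to the right of 0 (medians 0.33, 0.60, 0.60 and 0.39, the feedback median turning to -0.41 and -0.39 under the 75th-percentile scalings), and RAS family GTPases and exchange factors to the left (-0.32 and -0.36).

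Within single obesity groups fewer pathway genes passed: 26 rose and 16 fell in OP, 23 and 17 in OR, and 33 and 19 in LC, which is 46.2%, 44.0% and 57.1% of the 91, beside 44.8%, 29.4% and 43.9% of all probes. The OP share is near that of all probes, and the sets are unlike here too, as said above. The leading genes were largely those already named. Erbb2 rose by 1.26 in OP, 1.85 in OR and 2.28 in LC (adjusted p = 0.000345, 0.000242 and 7.77e-06), and Dusp5 by 1.55, 1.49 and 1.98 (0.000148, 0.00225 and 5.91e-05). Some genes led their list in a single group, that is, were among its 2 smallest p there, and could still pass in other groups. In OP these were Rap2a (-0.45, 0.00838), Rasa3 (-0.72, 0.0182), Mknk1 (-0.32, 0.0227), Fosl2 (0.47, 0.017) and the cyclin Ccnd1 (1.02, 0.0207). In OR they were Kdr (-2.55, 0.00133), Mras as given above and Fosl1 (0.9, 0.0259). Kdr also fell in OP (-1.39, 0.00718) and in LC (-1.23, 0.0318), and Mras passed in each group. In LC they were Rasd2 (3.42, 0.000505), Dab2ip (1.85, 0.000687), Mapk6 (0.86, 0.00104), Rasgrp4 (-0.71, 0.00208), Phlda1 (1.57, 0.00673) and Fos (1.16, 0.0078). Whether these differ between groups was not tested. Between OR and LC cancers, between OP and the other normal tissues, and between OR and LC normal tissue, limma called 0 of the 91, with 3, 5 and 8 at an unadjusted p under 0.05.

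In OP against the other cancers the list medians ran from -0.20 (MEK and ERK kinases) to 0.12 (transcription targets), against -0.0074 over all probes. Differences were positive for 1 of 6 MEK and ERK kinases, 3 of 15 RAF kinases and scaffolds (median -0.16) and 9 of 13 targets. Under the other 3 scalings the MEK and ERK median was -0.28, -0.22 and -0.29, and the RAF median -0.09, -0.045 and -0.10. Mras had the largest difference of its list, and Shoc2, whose product joins M-Ras and PP1 in the RAF-activating complex, had the largest of the RAF list, at 0.64 (SE 0.118). Shoc2 ran from 9.72 over a median of 10.35 to 10.44 in OP cancers, was 9.96, 9.74 and 9.74 in OR cancers, and 9.34, 9.5 and 9.33 in LC cancers. OP cancer 6 lay just below the OR cancers and above the LC cancers, and the other 5 OP cancers exceeded all others. In normal tissue Shoc2 was at 9.57 to 10.58, and it fell in cancer by 0.43 (SE 0.111, limma adjusted p = 0.00317), a call that was lost under the other 3 scalings (-0.21, -0.18 and -0.19). Without LC normal tissues 2 and 3, in which Shoc2 was also low (9.88 and 9.57), the difference was -0.58. The PP1 catalytic subunits, looked at after Shoc2 was seen, did not run with it: Ppp1ca was -0.41 (SE 0.142), Ppp1cb 0.048 (SE 0.119) and Ppp1cc -0.17 (SE 0.075) in OP against the other cancers. Under the other 3 scalings Ppp1ca shrank to -0.19, -0.15 and -0.2 and Ppp1cc to -0.066, -0.0063 and -0.078. Ppp1cb was then at 0.12, 0.16 and 0.11 and Shoc2 at 0.7, 0.7 and 0.69. The largest differences of the remaining lists were Erbb2 -0.55, Ccnd1 0.48, Cblb, a ubiquitin ligase for receptors, 0.27, Rasa1 0.18, Dusp9 -0.18, Rps6ka1 -0.17 and Rasgrf2 0.068, the last 2 with a sign that turned under another scaling. In their range over samples, OP cancers reached from 8.97 to 10.08 for Erbb2 and the other cancers from 10.00 to 10.44, and for Ccnd1 from 13.64 to 15.18 against 13.64 to 14.61.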

How the data were processed

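Total RNA of frozen tissues was labelled with Cy3 and put on Agilent rat arrays with 1 colour, each array holding 1 sample. Per the file headers, the scanner files hold spot and local background brightness (intensity) and quality flags of 0 or 1 (other, deposited by the authors' scanner software). The submitters' processing notes name Agilent Feature Extraction 10.7.3.1 and the file headers version 9.5.1.1. The authors also deposited a value table on a log2 scale. Set against the scanner files, it held log2 processed signals scaled to the 75th percentile of each array and centred per probe, for 20824 entries, of which 20793 matched a probe (column medians -0.151 to 0.239), and it was used as an alternative. The design text names RMA normalization, which the table does not show.

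Median spot signals were corrected with normexp (offset 50) on the median local background and quantile-normalized on the log2 scale, after the RMA that the design text names. R 4.3.3, limma 3.58.1 and jsonlite 2.0.0 were used, and Python 3.11.15 with matplotlib 3.10.9 for figures. Of 41012 probes (43379 spots), 115 were dropped for outlier marks and 825 as dim (a probe had to be well above background in a share of 0.5 or more of some group's arrays), and 40072 were tested. Saturated spots numbered 0. Spots of a probe were averaged. Names came from RefSeq accessions (8991 of 13948 matched), which gave 10835 probes a symbol and left 30177 without one. Cancer against normal was fitted on 20 arrays, comparisons among cancers on 12 and among normal tissues on 8. Adjusted p-values are limma's, by Benjamini and Hochberg over all tested probes. The number of arrays limits the precision. The members and lists were chosen with earlier results of these data known. The named genes were the members, the 3 smallest p per pathway list in cancer against normal (2 in other tested comparisons), the largest difference per list in OP against the other cancers, and 5 correlates each of Ptpn11 and Mras. Some single genes of the pathway lists are counted but not reported by name here. Scripts were tested on simulated data.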

Additional observations from a re-analysis of the deposited data

How the results depend on the processing

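Over 1240 values recomputed under alternatives, 1172 were counted as the same, 35 as weaker (call lost or count lower), 26 as stronger, 6 as moved and 1 as reversed. The same means the same side of the threshold or, for counts, within 1.5 times. For OP against the other cancers it means the same sign and a shift smaller than the spread of samples. A turned sign in a tested value was counted as reversed only where the value passed before or after. Mapk3 in cancer against normal tissue, at 0.22 and, scaled to the 75th percentile, at -0.1, was therefore counted as the same. The reversed value was the brighter Ptpn11 probe in LC cancer against LC normal tissue, 0.091 in the main setting and -1.27 (limma adjusted p = 5.53e-05) without LC normal tissues 2 and 3, because only LC normal tissue 1 then remains in that group. Without those 2 tissues, 5 of the 6 member probes passed in OP instead of 3. Leaving out each replicate in turn gave 2 to 5 passing member probes in OP and 0 to 2 for OR against LC normal tissue, the highest in both cases without LC normal tissue 1. In scan day 2 alone 0 passed in OP, 0 in OR and 0 in LC, in a fit with 1 OR and 1 LC cancer whose spread is assumed to be that of the other groups; limma's directions for Mras, Nras and Map2k1 were kept there. These 2 settings were added after the data were seen. The number of pathway genes past the threshold was 69, and 52 to 72 under the alternatives. The share of calls that were higher in cancer was 48.1% of all probes, and 18.3%, 17.8% and 39.6% under the 75th percentile of the processed signal, the same after normexp, and the authors' table. With the replicate block 65 pathway genes passed, the dimmer Ptpn11 probe in cancer against normal was at 0.33 (adjusted p = 0.118) and Mras in OP at -0.99 (0.0695), both past the threshold without it. Over 40 same-numbered pairs the correlation of deviations ran from -0.342 to 0.285, over 0.1 in 4. On scan day 2 the replicate numbers also go in part with the slide. Whether same-numbered samples came from 1 animal cannot be told from this. Groups of 2 to 3 normal tissues limit every comparison among them, and scan day could not be fitted as a block there because all 8 shared 1 day.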
